A study of Mus musculus with 6 samples.

Results

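Heat shock proteins and their J-domain co-chaperones were examined in mouse trigeminal ganglion, the sensory ganglion of the head. The members were the protein-coding genes of the deposited table whose names begin with Hspa, Hspb, Hspd or Hspe and a number, the Hsp90 genes, Hsph1, and the genes Dnaja, Dnajb and Dnajc with a number, which gave 65 of 16415 listed genes. Of these, 25 encode heat shock proteins and 40 encode J-domain proteins. Bulk messenger RNA was sequenced from 6 libraries, all labelled WT: 3 under the treatment named NC-up and 3 under SETDB2-up. Neither label is spelled out, and the age, sex and strain of the mice, the route of treatment and whether a library is 1 mouse or a pool are left unstated in the labels.

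Values are normalised reads, that is, read counts per gene that the authors divided by 1 factor per library, and each library held from 19334997 to 23501386 whole reads, recovered from these values. Setdb2, the gene that the SETDB2-up label names, had values of 69.9, 58.4 and 71.5 in NC-up libraries 1, 2 and 3 and 113, 97.6 and 104 in SETDB2-up (log2 fold change 0.65 ± 0.19 SE, limma adjusted p = 0.0253; after GC correction 0.49, adjusted p = 0.139). With 1 library left out the log2 fold change of Setdb2 lay between 0.56 and 0.71. Its call ended without NC-up library 2 and without any of the SETDB2-up libraries (limma adjusted p up to 0.141). All 10 sensory neuron markers were measured, with a summed level of 455781 to 481449 over the 6 libraries, and 1 of them, Scn9a, rose. Hepatocyte transcripts stood out in SETDB2-up libraries 1 and 2: the summed level of the marker list was 2904 and 6841 there, 95.5 in SETDB2-up library 3 and 49.8 to 59.0 in NC-up, and Alb had no read in NC-up. All 9 tested hepatocyte genes of 12 rose. Keratinocyte genes (summed level 173 to 518 in NC-up, 114 to 127 in SETDB2-up; 4 of 4 tested fell) and skeletal muscle genes (137 to 313 against 78.8 to 155; 3 of 7 fell) moved the other way. The satellite glia list had 110436 to 114669 against 96078 to 115218 (1 of 7 fell, Sox10), and the erythroid list 7806 to 15313 against 5249 to 15488 (1 of 5 fell). In bulk tissue, fewer cells of a type and less RNA per cell cannot be told apart. The labels do not say whether each library is a separate animal; the p-values reflect the spread among libraries, and that spread may be technical.

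Heat shock proteins are chaperones that keep other proteins folded. HSP70 proteins bind short unfolded stretches of a client and let go of it in a cycle driven by ATP; J-domain proteins bring clients to HSP70 and start ATP hydrolysis, HSP110 proteins act as nucleotide exchange factors that reset the cycle, and HSP90 takes over clients such as kinases and receptors for late folding steps. The chaperonin Hspd1 and its lid Hspe1 fold proteins inside mitochondria, and small heat shock proteins hold unfolded clients without using ATP. A number of these genes are driven by heat shock factor 1 (HSF1) through heat shock elements, repeats of GAA and its complement TTC, while chaperones of the endoplasmic reticulum (ER) are driven by ATF6 and XBP1 through the ER stress element. Neurons with long axons rely on several members for synaptic vesicle and endosome traffic.

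Sites of both kinds were searched in RefSeq promoter windows (GRCm38.p6, 250 bases before to 50 after a start), on both strands. Of the 65 members, 52 matched, with 69 windows; Dnajc2, Dnajc5, Dnajc11, Dnajc12, Dnajc18, Dnajc22, Dnajc30, Hsp90aa1, Hsp90ab1, Hspa8, Hspa9, Hspa13 and Hspb2 had no entry. The ER stress element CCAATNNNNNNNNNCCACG, which contains a CCAAT box, was present in 39 of 32851 windows of all genes (0.119%). Among members it was found for Hspa5, Hsp90b1 and Dnajc3, which encode ER chaperones, and for none of the other matched members. All 3 genes rose, where 7.71% of all genes did. After GC correction Hsp90b1 kept its call, and Hspa5 and Dnajc3 did not (limma adjusted p = 0.0586 and 0.160). Of the matched ER members without the element, Dnajb9 and Dnajc10 rose, and Dnajb11 and Dnajc1 did not pass. The sites are shown with 5 bases on each side, the element in capitals, on the strand of the gene.
Hspa5 (chr2:34772020-34772048, plus strand): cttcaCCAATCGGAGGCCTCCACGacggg
Hsp90b1, first site (chr10:86705633-86705661, minus strand): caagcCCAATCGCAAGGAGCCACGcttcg
Hsp90b1, second site, inverted (chr10:86705528-86705556, minus strand): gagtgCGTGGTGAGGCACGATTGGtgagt
Dnajc3 (chr14:118937822-118937850, plus strand): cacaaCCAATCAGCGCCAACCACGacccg

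A heat shock element of 3 units, GAANNTTCNNGAA or its complement, was present in 198 windows of all genes (0.603%) and in those of 4 members, Hspd1, Hspe1, Dnajb6 and Hsph1. Each such site also contains the 2-unit forms GAANNTTC and TTCNNGAA, which alone were present in 7.86% and 8.52% of all windows; the CCAAT box was in 37.4%. These sites are shown because, of the 4 genes, Hspd1 rose and the others did not pass the test.
Hspd1 and Hspe1, 2 overlapping matches (chr1:55088054-55088081, strand of Hspd1): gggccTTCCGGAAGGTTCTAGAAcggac
Dnajb6 (chr5:29735847-29735869, plus strand): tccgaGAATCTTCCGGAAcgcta
Hsph1 (chr5:149636283-149636305, minus strand): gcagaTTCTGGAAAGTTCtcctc

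Hspd1 and Hspe1 are divergent neighbours. With the Hspd1 start of the window chr1:55087883-55088182, a single site lies between their starts and is counted for both. The other Hspd1 window, chr1:55088194-55088493, held no 3-unit match. For Hspa1a, the classical stress-inducible HSP70 gene, the 250 bases before the start are printed whole (chr17:34972157-34972406, minus strand), with the single 2-unit match in capitals. The near-identical copy Hspa1b has the same base at 247 of these 250 positions.
Hspa1a: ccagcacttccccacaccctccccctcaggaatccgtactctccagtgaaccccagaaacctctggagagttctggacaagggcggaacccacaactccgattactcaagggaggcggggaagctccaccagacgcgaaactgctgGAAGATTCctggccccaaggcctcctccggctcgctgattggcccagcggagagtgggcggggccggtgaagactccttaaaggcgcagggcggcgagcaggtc

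Across the members, 16 rose and 1 fell in SETDB2-up (limma adjusted p under 0.05), and 48 did not pass. All 65 passed the filter on low values. Of all 16387 genes tested, 7.71% rose and 8.71% fell; among the members 24.6% rose. The median log2 fold change was 0.10 over the members and 0.00 over all genes tested. EdgeR on the recovered reads called 16 up and 1 down (7.37% and 8.99% of all genes) and DESeq2 19 up and 1 down (7.95% and 9.06%). The 3 SETDB2-up values lay wholly above the NC-up values for 26 members and wholly below for 5, against 16.8% and 16.4% of all genes. Changes were small: the largest among the 16 was that of Hsp90b1, 1.30-fold. Without NC-up library 2 the count that rose was 10 (4.55% of all genes), without SETDB2-up library 1 it was 8 (2.55%), and leaving out SETDB2-up libraries 1 and 2 together, where hepatocyte transcripts were high and after which 1 library is left, gave 10 (1.13%) and no member that fell (2.17%). Of those 10, 8 were among the 16; with 1 SETDB2-up library the spread comes from NC-up alone, and the lone library is assumed to vary like it. With any 1 library left out, the calls of Hspa8, Hspa5, Hsp90aa1, Hsp90b1, Hspd1, Dnaja1, Dnajb4 and Hspa4l held. Those of Hspa13 and Dnajc3 ended without SETDB2-up library 1 (highest adjusted p 0.0937 and 0.0576), and those of Dnajb9, Dnajc6, Dnajc7, Dnajc10 and Dnajc4 ended without that library and without others, with an adjusted p of up to 0.130, 0.113, 0.0879, 0.117 and 0.0890. Without SETDB2-up library 3, Hspa9, Hspa12a, Dnajb14 and Dnajc13 were called higher as well (0.17, 0.15, 0.26 and 0.20).

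**Figure D1:**
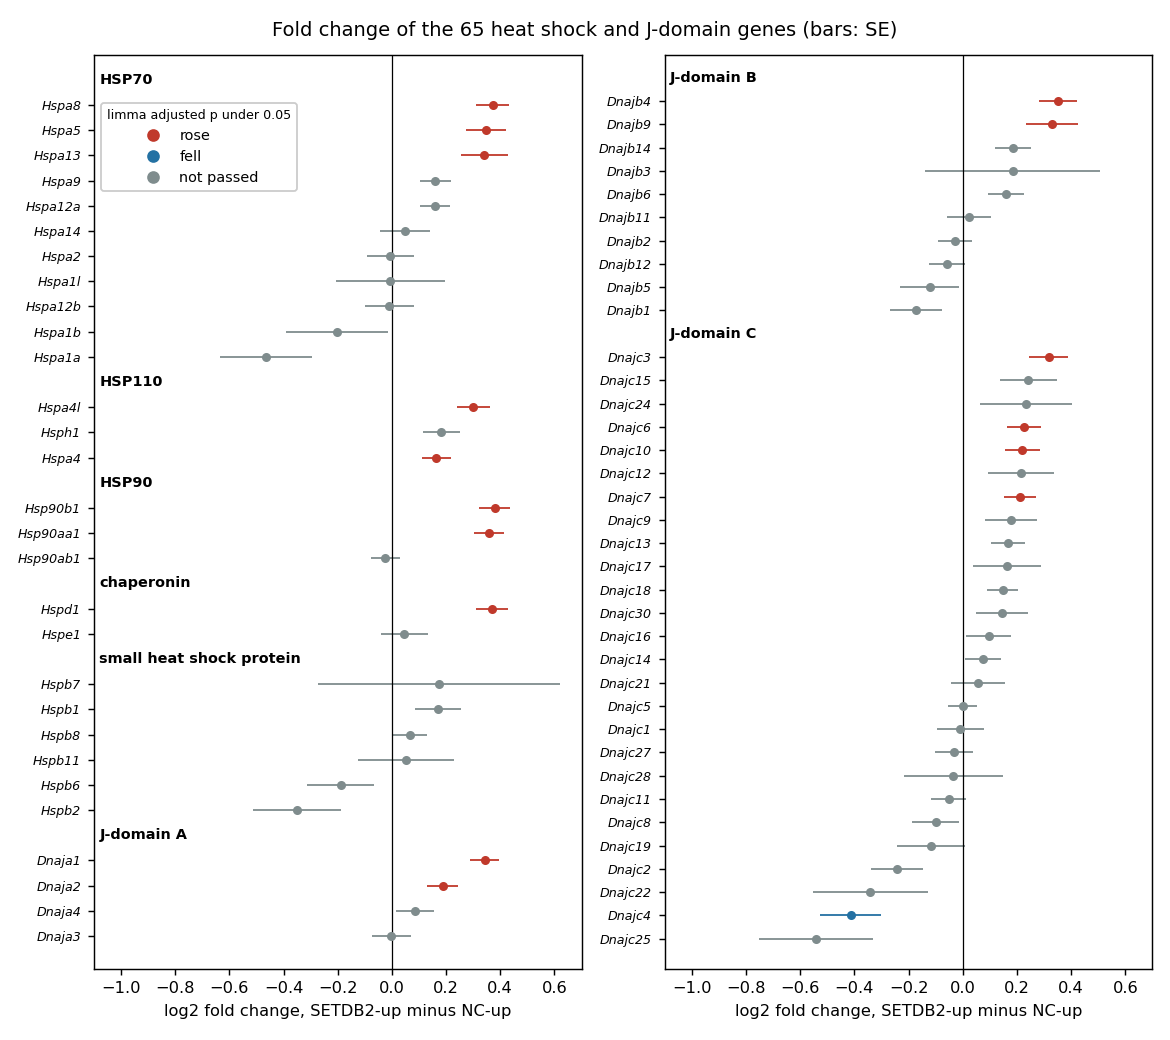
Log2 fold change of each member in SETDB2-up relative to NC-up (x axis; points, limma estimates; bars, SE; 3 libraries per group), grouped by class. The 16 members that rose lie between 0.16 and 0.38, and Dnajc4, at -0.41, is the member that fell.

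The HSP70 class held 11 members, of which 3 rose. Hspa8, the constitutive cytosolic HSP70 that also strips clathrin from vesicles, had 38295, 39212 and 42206 normalised reads in NC-up libraries 1, 2 and 3 and 51214, 48566 and 55230.3 in SETDB2-up. The groups did not overlap, with the highest value of each in library 3. The mean went from 39904 ± 2045 to 51669.8 ± 3356 (SD, n = 3 each), or 0.37 ± 0.06 (SE) on the log2 scale (limma adjusted p = 0.000506). With any 1 library left out it lay between 0.32 and 0.42, with an adjusted p of up to 0.0119. Reads of Hspa8 could be shared with its processed pseudogenes, and the labels do not say how such reads were counted. Hspa5 (BiP), the HSP70 of the ER, had 5303, 5948 and 6662 against 7727, 6891 and 8135 (0.35 ± 0.07 SE, limma adjusted p = 0.00395). Hspa13, an HSP70-like ATPase of microsomes, had 461, 442 and 463 against 611, 555 and 566 (0.34 ± 0.09 SE, adjusted p = 0.0121). For both the groups were fully apart, although Hspa5 spread widely within each group.

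The stress-inducible HSP70 genes did not rise. Hspa1a had 321, 327 and 502 under NC-up and 218, 253 and 361 under SETDB2-up (-0.47 ± 0.17 SE, limma adjusted p = 0.0688). Hspa1b had 461, 555 and 877 and 454, 434 and 742 (-0.20 ± 0.19 SE, adjusted p = 0.498). In both genes library 3 was well above libraries 1 and 2 in each group, and the groups overlapped. Their sequences are nearly the same, so how reads were split between them is uncertain. Both turned on library 3. Without SETDB2-up library 3 both were called lower, Hspa1a at -0.67 (limma adjusted p = 0.00373) and Hspa1b at -0.45 (adjusted p = 0.0458). Hspa1a was also called without NC-up library 1 (-0.58, adjusted p = 0.0358), but was at -0.25 without NC-up library 3 and at -0.06 without SETDB2-up libraries 1 and 2, past the threshold in neither. Hspa1b was at 0.06 without NC-up library 3 and at 0.29 without SETDB2-up libraries 1 and 2. Hspa8 was 49.0, 44.5 and 30.6 times the summed value of Hspa1a and Hspa1b in NC-up libraries 1, 2 and 3 and 76.1, 70.6 and 50.1 times in SETDB2-up (log2 difference 0.67, exact permutation p = 0.1, two-sided, the smallest that 3 against 3 libraries allow). This ratio, like the other ratios here, was chosen after the values were seen, so these p-values give no separate support.

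Hspa9 (mortalin), the mitochondrial HSP70, lay apart between the groups (4062, 3841 and 4215 against 4677, 4389.9 and 4473) without passing (0.16 ± 0.06 SE, adjusted p = 0.0619). So did Hspa12a, a divergent HSP70 of brain and nerve, with 13807, 14608 and 15269 against 16215, 16117 and 16386 (0.16 ± 0.05 SE, adjusted p = 0.0522). Hspa2, known from spermatogenesis, Hspa14, a ribosome-associated HSP70, Hspa12b, known from endothelium, and the testis-linked Hspa1l had log2 fold changes between -0.01 and 0.05. Hspa1l was the lowest HSP70 gene per transcript length, at 36.1 normalised reads per kb of the longest annotated transcript, against 14499 for Hspa8.

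**Figure D2:**
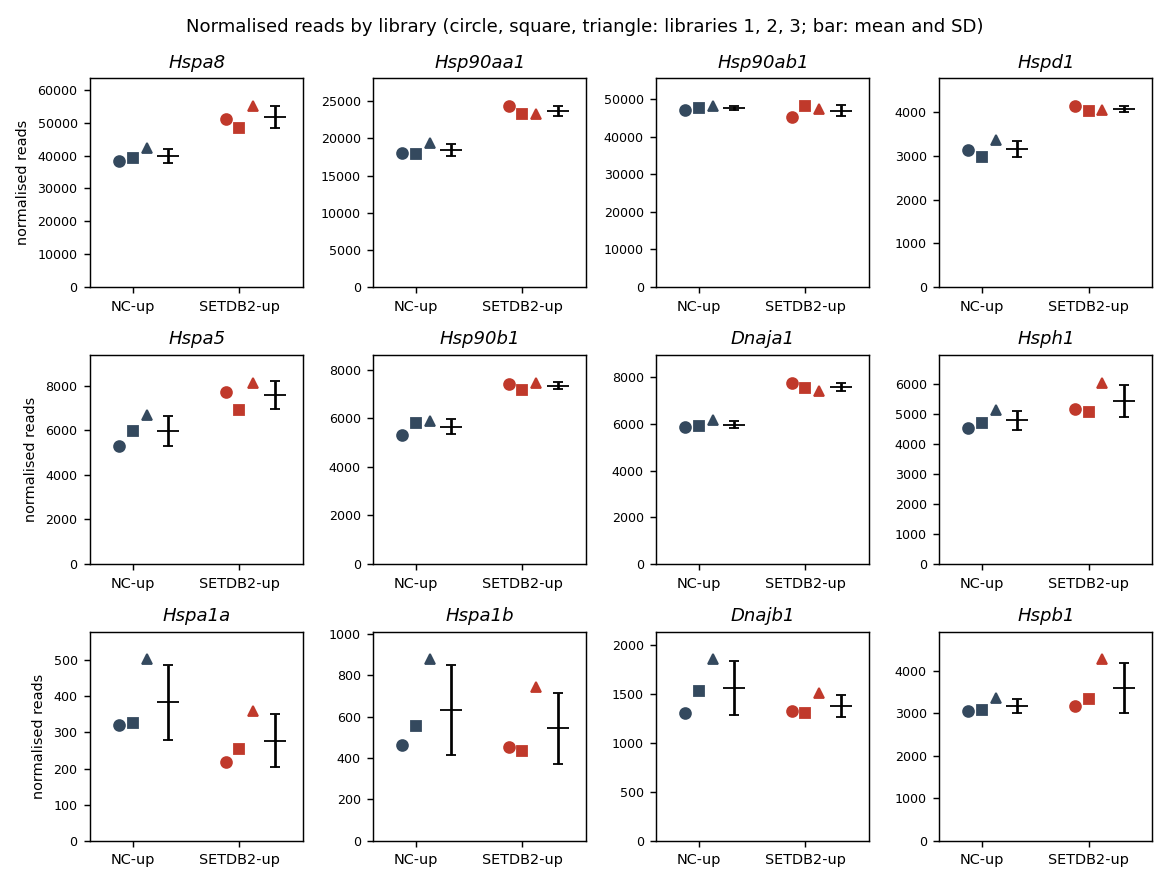
Normalised reads of 12 members in each library (y axis from 0; symbols mark libraries 1, 2 and 3 of each group; bar, mean and SD, n = 3). Hspa8, Hsp90aa1, Hspd1, Hspa5, Hsp90b1 and Dnaja1 separate the groups. Hspa8, Hspa5, Hsp90b1, Hsph1, Hspa1a, Hspa1b, Dnajb1 and Hspb1 are highest in library 3 of both.

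Among the HSP110 exchange factors 2 of 3 rose. Hspa4l had 2999, 3204 and 3365 under NC-up and 4095, 3745 and 3931 under SETDB2-up (0.30 ± 0.06 SE, limma adjusted p = 0.00270), with no overlap. Hspa4 had 4910.3, 5024 and 5176 against 5659, 5546 and 5712 (0.16 ± 0.05 SE, adjusted p = 0.0432), a call that ended when any of 5 libraries was left out and held only without SETDB2-up library 3. Hsph1, the stress-inducible member, had 4525, 4718 and 5143 against 5191, 5089.7 and 6059.9 (0.18 ± 0.07 SE, adjusted p = 0.0762). Its NC-up library 3 lay above SETDB2-up library 2, so that the groups overlapped. With 1 library left out its log2 fold change lay between 0.10 and 0.23, past the threshold in none of these fits. Without SETDB2-up libraries 1 and 2, which leaves 1 library, Hsph1 was at 0.34.

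In the HSP90 class 2 of 3 rose, of the 2 cytosolic forms Hsp90aa1. Hsp90aa1, the inducible form, had 18071, 17840.0 and 19427 under NC-up and 24407, 23293 and 23238 under SETDB2-up (0.36 ± 0.05 SE, limma adjusted p = 0.000281). Hsp90ab1, the constitutive form and the most abundant member per length (18795 normalised reads per kb), had 47226, 47760.5 and 48278 and 45311, 48290.0 and 47319.8 (-0.02 ± 0.05 SE, adjusted p = 0.805). Every SETDB2-up value of Hsp90aa1 exceeded every NC-up value, while those of Hsp90ab1 were interleaved. The ratio of Hsp90aa1 to Hsp90ab1 was 0.383, 0.374 and 0.402 under NC-up and 0.539, 0.482 and 0.491 under SETDB2-up (log2 difference 0.38, exact permutation p = 0.1, two-sided, the smallest possible). The 2 transcripts have a GC content of 43.7% and 51.0%, and after GC correction the log2 fold changes were 0.22 and -0.01. Hsp90b1 (GRP94), the ER form, had 5286, 5792 and 5872 against 7384, 7178 and 7464, again fully apart (0.38 ± 0.06 SE, limma adjusted p = 0.000215).

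Of the mitochondrial chaperonin pair Hspd1 rose and Hspe1 did not pass. Hspd1 (HSP60) had 3127, 2983 and 3365 under NC-up and 4149, 4031 and 4039.6 under SETDB2-up, groups that lay fully apart (0.37 ± 0.06 SE, limma adjusted p = 0.000413). Hspe1 (HSP10), which starts on the opposite strand beside it, had 1076, 999.8 and 1216 and 1120.0, 1026 and 1252 (0.05 ± 0.09 SE, adjusted p = 0.760), with full overlap. The ratio of Hspd1 to Hspe1 was 2.91, 2.98 and 2.77 under NC-up and 3.70, 3.93 and 3.23 under SETDB2-up (log2 difference 0.32, exact permutation p = 0.1, two-sided, the smallest possible). The annotated genes overlap at their starts, and without the strand setting of the count the reads of that stretch cannot be assigned.

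None of the 6 small heat shock proteins passed in limma on the authors' normalised values, in edgeR or in DESeq2. After GC correction 1 of them, Hspb1, rose (0.44, limma adjusted p = 0.000813), where 2.17% of all genes did. In limma without that correction 1, Hspb2, had an unadjusted p under 0.05, downward, as did 2573 of all 16387 genes tested. Hspb1 (HSP27), which is abundant in sensory neurons, had 3063, 3085 and 3354 under NC-up and 3169, 3338 and 4266 under SETDB2-up (0.17 ± 0.08 SE, limma adjusted p = 0.176). SETDB2-up library 3 was far above the other 5 libraries, and without it the log2 fold change was 0.04 (adjusted p = 0.703). Without SETDB2-up libraries 1 and 2, where library 3 alone is left, Hspb1 was at 0.43. Hspb8, a partner of the co-chaperone Bag3, had 4624, 4758 and 4927 and 4667, 4786 and 5563 (0.07 ± 0.06 SE, adjusted p = 0.532), again highest in library 3 of each group. Hspb2 (-0.35 ± 0.16 SE, adjusted p = 0.148) lies opposite the more abundant Cryab, which has at least 4 times its value, so its reads are uncertain; it was called lower without SETDB2-up library 3 (-0.49, adjusted p = 0.0478). Hspb6, known from muscle, went from 247 ± 3.15 to 217 ± 23.3 (SD, n = 3 each), lower without overlap but not past the test (-0.19 ± 0.12 SE, adjusted p = 0.322); skeletal muscle genes were lower in SETDB2-up, and their part in this value was not tested. The heart and muscle gene Hspb7 was the lowest member, at 9.53 to 16.3 normalised reads, and Hspb11, an intraflagellar transport protein, had 0.05 ± 0.18 SE.

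Of the J-domain A genes, which are closest to bacterial DnaJ, 2 of 4 rose. Dnaja1, a main cytosolic partner of Hspa8, had 5845, 5913 and 6159 under NC-up and 7769.9, 7519 and 7416 under SETDB2-up (0.34 ± 0.05 SE, limma adjusted p = 0.000326). Dnaja2, also cytosolic, had 2265, 2280.3 and 2241 against 2629.6, 2473 and 2626 (0.19 ± 0.06 SE, adjusted p = 0.0351), a call that ended without any single library. Dnaja4 (0.09 ± 0.07 SE) and the mitochondrial Dnaja3 (0.00 ± 0.07 SE) did not pass.

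Of the 10 J-domain B genes 2 rose. Dnajb4, a cytosolic relative of Dnajb1, had 997, 1025 and 1060.1 under NC-up and 1336, 1232 and 1371 under SETDB2-up (0.35 ± 0.07 SE, limma adjusted p = 0.00239). Dnajb9 (ERdj4), an ER co-chaperone of Hspa5, had 528, 414 and 484 against 598, 597 and 586 (0.33 ± 0.10 SE, adjusted p = 0.0253); the 3 SETDB2-up values lay close together and above all NC-up values. Dnajb1 (HSP40), the classical stress-inducible co-chaperone, had 1303, 1531 and 1849 against 1319, 1299 and 1504 (-0.17 ± 0.10 SE, adjusted p = 0.239), overlapping and highest in library 3 of both groups; without NC-up library 1 it was called lower (-0.30, adjusted p = 0.0318), and without NC-up library 3 it was at -0.04 (adjusted p = 0.793). The other 7 did not pass: Dnajb14, a membrane protein of the ER, had a log2 fold change of 0.19, Dnajb6, which holds back aggregation of polyglutamine proteins, 0.16, the ER protein Dnajb11 0.02, the neuronal Dnajb2 -0.03, Dnajb12 -0.06 and Dnajb5 -0.12. Dnajb3 (0.18) had only 23.0 to 33.9 normalised reads and lies opposite a more abundant gene.

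The J-domain C class is the most varied, since its members share little beyond the J domain; 4 of 26 rose and 1 fell. Dnajc3 (p58IPK), an ER co-chaperone, had 1438, 1557 and 1635 under NC-up and 2078, 1772 and 1927 under SETDB2-up (0.32 ± 0.07 SE, limma adjusted p = 0.00561). Dnajc10 (ERdj5), a disulfide reductase of the ER, had 1514, 1392 and 1471 against 1739, 1682 and 1674 (0.22 ± 0.06 SE, adjusted p = 0.0248). Dnajc6 (auxilin), which recruits Hspa8 to clathrin coats in neurons, had 3046, 3384 and 3572 against 4051, 3862 and 3770.1 (0.23 ± 0.06 SE, adjusted p = 0.0202). None of these 3 pairs of groups overlapped. Dnajc7, which binds both HSP70 and HSP90, had 2479, 2549 and 2609 against 3008, 2834 and 3000.0 (0.21 ± 0.06 SE, adjusted p = 0.0182), but lies opposite Cnp and Nkiras2, of which at least 1 has at least 4 times its value. Dnajc4, for which no role is given here, fell from 318 ± 14.7 to 239 ± 16.2 (SD, n = 3 each) (-0.41 ± 0.11 SE, adjusted p = 0.0171).

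Dnajc5, the cysteine string protein of synaptic vesicles at 786 normalised reads per kb, had 5145, 4996 and 5371 under NC-up and 5201, 5228 and 5070.3 under SETDB2-up (0.00 ± 0.05 SE, adjusted p = 0.994). Its groups were interleaved, unlike those of Dnajc6, the clathrin co-chaperone. Dnajc25 had the most negative log2 fold change of all members (-0.54 ± 0.21 SE, adjusted p = 0.0852), at 107, 105 and 94.8 against 95.0, 60.0 and 59.8, with the highest SETDB2-up value just above the lowest NC-up value. The liver-linked Dnajc22 (-0.34 ± 0.21 SE) and the ribosome-associated Dnajc2 (-0.24 ± 0.10 SE) were lower without overlap and did not pass. The endosomal Dnajc13 (0.17 ± 0.06 SE, adjusted p = 0.0715), Dnajc18, Dnajc15, Dnajc12, Dnajc9 and Dnajc17 were higher without overlap and did not pass. The splicing-associated Dnajc8 (-0.10) and Dnajc14 (0.07), both among the 5 of this class with the most reads per length, overlapped between groups. The other 9, Dnajc1, Dnajc11, Dnajc16, Dnajc19, Dnajc21, Dnajc24, Dnajc27, Dnajc28 and Dnajc30, lay between -0.12 and 0.23; Dnajc19 lies opposite the more abundant Fxr1.

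By compartment, 6 of the 8 members whose proteins sit in or face the ER lumen rose (Hspa5, Hspa13, Hsp90b1, Dnajb9, Dnajc3 and Dnajc10), with a median log2 fold change of 0.32 over the 8, where 7.71% of all genes rose. These 8 had a median transcript GC content of 44.0%, in the range under 45% where 22% of all genes rose. After GC correction 1 of the 8 rose, where 2.17% of all genes did, and the median was 0.14. Without SETDB2-up libraries 1 and 2, which leaves 1 library, the log2 fold changes of the 6 lay between 0.20 and 0.45. Dnajb11 (0.02) and Dnajc1 (-0.01) did not pass. The ratio of Hspa5 to its co-chaperone Dnajb11 was 5.94, 7.28 and 7.44 under NC-up and 9.47, 7.96 and 8.39 under SETDB2-up (log2 difference 0.33, exact permutation p = 0.1, two-sided, the smallest possible). In mitochondria 1 of 8 rose, Hspd1, with a median of 0.10. Among the other 49 members, of the cytosol, nucleus and elsewhere, 9 rose and 1 fell, with a median of 0.07.

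Fold changes followed base composition, among members as among all genes. The 16 members that rose had a transcript GC content of 39.5% to 50.9%, with a median of 43.5%, and the other 49 had 40.3% to 61.7%, with a median of 50.5%. Across the 65 members the log2 fold change and GC content had a Pearson r of -0.50 and across 15513 tested genes -0.40, given as descriptions, since genes share libraries and are not replicates. Under 45% GC, 10 of 17 members rose, where 22% of all genes did; from 45% to under 50% it was 5 of 22 against 8.27%, and at 50% or more 1 of 26 against 1%. The share of all genes that fell in these ranges was 1.63%, 2.97% and 14.8%, and Dnajc4, the member that fell, lies in the last. The medians of members and of all genes in these ranges were 0.24 and 0.18, 0.15 and 0.07, and -0.01 and -0.11.

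**Figure D3:**
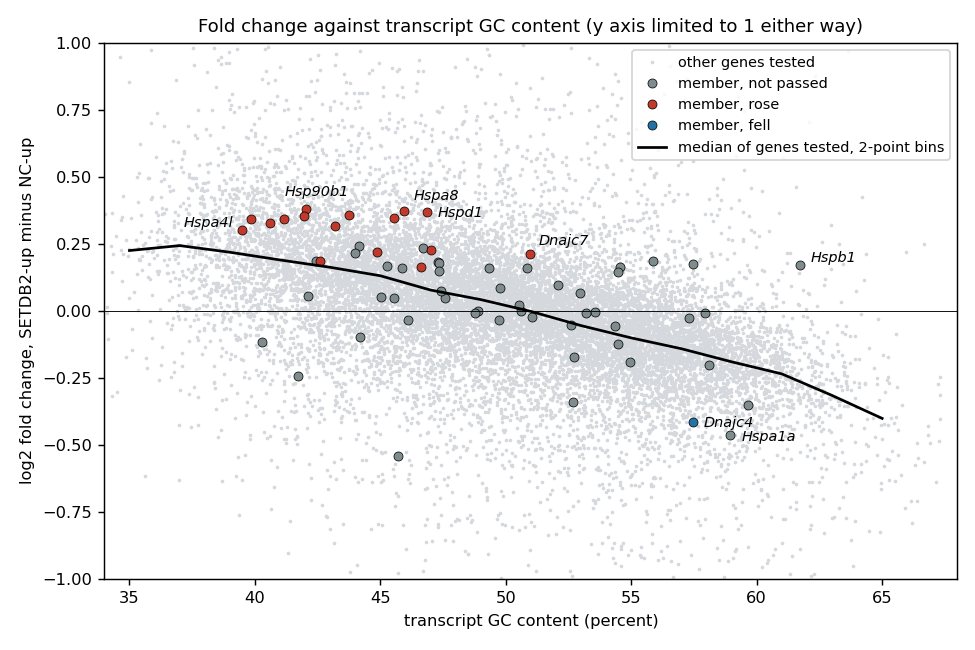
Log2 fold change (y axis, SETDB2-up minus NC-up) against GC content of the longest annotated transcript (x axis, percent) for members (circles) and the other tested genes (grey); the line is the median of the genes tested in bins of 2 percentage points, and the y axis stops at 1 either way. Hspa8 and Hspd1 lie above the line of their GC range, and Dnajc7 is the member at 50% or more that rose.

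After a GC correction, in which a smooth trend on GC content was removed from each library, 7 members rose and 1 fell (2.17% and 4% of all genes), and 6 of the 7 were among the 16. Hspd1 (0.29 ± 0.05 SE, limma adjusted p = 0.00294), Hspa8 (0.27 ± 0.06 SE, 0.00721), Hsp90aa1 (0.22 ± 0.04 SE, 0.00747), Hsp90b1 (0.21 ± 0.05 SE, 0.0277) and Dnaja1 (0.16 ± 0.05 SE, 0.0466) passed. Dnajc7 (0.22 ± 0.05 SE, 0.0165) passed too, and Hspb1, whose transcript has the highest GC content of the members, passed after the correction and not before it (0.44 ± 0.07 SE, 0.000813). Hspa5 missed the threshold (0.24 ± 0.07 SE, 0.0586), and of the 8 ER members Hsp90b1 was the one that passed. Calls ended for Hspa13 (0.14), Dnajb9 (0.14), Dnajc3 (0.17), Dnajc10 (0.10), Dnajb4 (0.18), Hspa4l (0.10), Hspa4 (0.08), Dnaja2 (0.03), Dnajc6 (0.15) and Dnajc4 (-0.25), and Dnajc2 fell (-0.42 ± 0.09 SE, 0.0113). Hspa1a was at -0.27 ± 0.17 SE (adjusted p = 0.391) and Hsp90ab1 at -0.01 ± 0.04 SE. Hspa8, Hsp90aa1, Hsp90b1, Hspd1 and Dnaja1 were called in all 15 alternatives run.

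**Figure D4:**
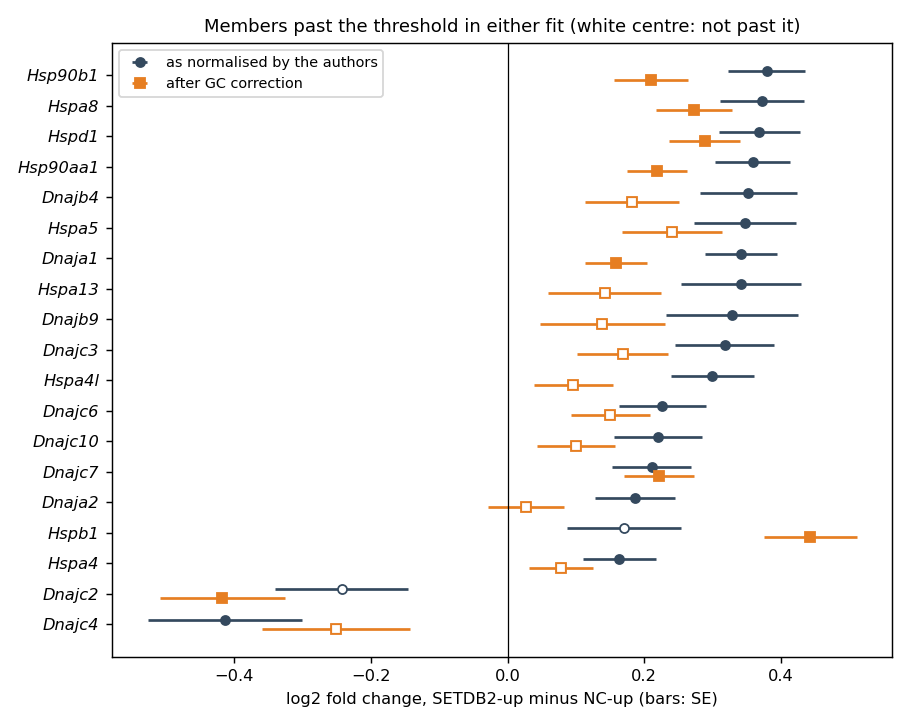
Log2 fold change with SE (x axis) of the 19 members past the threshold in either fit, from the authors' normalised values (circles) and after GC correction (squares); a white centre marks a value not past the threshold. The squares lie closer to 0 than the circles for 16 of them, and Hspb1, Dnajc7 and Dnajc2 are the exceptions.

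Library 3 of each group held the highest value of its group for 23 of 65 members, among them Hspa8, Hspa5, Hspa1a, Hspa1b, Dnajb1, Hsph1, Hspb1 and Hspb8. The same count was not taken over all genes, so it cannot be read as a trait of the members. The labels give no link between libraries of the same number.

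Genes that work with the members were then taken from lists of known partners, with 82 measured genes, of which 14 rose and 4 fell (median log2 fold change 0.06). After GC correction 7 rose and 1 fell. Of all genes tested, 7.71% rose and 8.71% fell, and after GC correction 2.17% rose and 4% fell. The counts of each list below stand against these same shares. Of 15 ER folding genes outside the members 6 rose, which were the disulfide isomerases Pdia6 (0.44 ± 0.07 SE), Pdia4 (0.26 ± 0.06 SE) and Pdia3 (0.19 ± 0.05 SE), the lectin chaperones Canx (0.22 ± 0.05 SE) and Calr (0.20 ± 0.06 SE), and the stress sensor Atf6 (0.29 ± 0.07 SE). Manf (0.13), Hyou1 (0.06), Herpud1 (0.06) and Atf4 (0.05) of this list did not pass. Neither did Creld2 (-0.01), P4hb (-0.01), Xbp1 (-0.05), Sdf2l1 (-0.14) and Ddit3 (-0.14), and the list median was 0.06. Pdia6 and Calr kept their calls after GC correction (0.40 and 0.19). With 1 library left out the calls of Pdia6, Pdia4 and Canx held. The limma adjusted p then reached 0.101 for Pdia3, 0.0929 for Calr and 0.0847 for Atf6. Of 21 HSP90 co-chaperones 3 rose: Chordc1 (0.50 ± 0.08 SE), Ppid (0.23 ± 0.08 SE) and Cacybp (0.21 ± 0.07 SE), while Stip1, which links HSP70 to HSP90, had 0.13 ± 0.06 SE and did not pass. None of these 3 passed after GC correction, where Fkbp4 (0.21), Nudc (0.21) and Ppp5c (0.23) of this list did. With 1 library left out the limma adjusted p reached 0.00706 for Chordc1, 0.197 for Ppid and 0.210 for Cacybp. Cacybp also missed the threshold in edgeR with TMM factors (adjusted p = 0.0503).

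Of 13 other HSP70 partners, St13, which steadies the HSP70 client complex, rose (0.20 ± 0.07 SE), and 3 fell: Bag6, which shields exposed hydrophobic stretches (-0.24 ± 0.06 SE), the exchange factor Hspbp1 (-0.25 ± 0.07 SE) and the ubiquitin ligase Stub1 (-0.21 ± 0.06 SE). None of these 4 passed after GC correction (-0.03 to 0.04). With 1 library left out the limma adjusted p reached 0.210 for St13, 0.078 for Bag6, 0.0973 for Hspbp1 and 0.126 for Stub1. Bag3, an HSF1 target and partner of Hspb8, had -0.01 ± 0.06 SE and did not pass. Of 14 genes of the cytosolic chaperonin and prefoldin 1 rose, Cct6a (0.36 ± 0.06 SE; 0.29 after GC correction), and of 9 mitochondrial proteases and chaperones Clpx (0.25 ± 0.08 SE) and Yme1l1 (0.36 ± 0.07 SE) rose. Neither passed after GC correction (0.12 and 0.14), and Clpx passed neither in edgeR with TMM factors (adjusted p = 0.0504) nor in DESeq2 (adjusted p = 0.0535).

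None of the 4 measured genes of the list of heat shock factors and their binding partner Hsbp1 passed in limma, before or after GC correction. An unadjusted p under 0.05, downward, was seen for 2 of them, as for 2573 of all 16387 genes tested. EdgeR called none and DESeq2 called 1 lower, where 9.06% of all genes fell. Hsf1 had 872, 899 and 893 under NC-up and 783, 769 and 820.1 under SETDB2-up (-0.17 ± 0.07 SE), and Hsf2 had 0.15 ± 0.10 SE. After GC correction Hsf1 was at -0.10, Hsf2 at -0.09, Hsf4 at 0.05 and Hsbp1 at -0.12. Of 10 known HSF1 targets outside the members, Chordc1 and Cacybp rose, and neither passed after GC correction. Cryab, a small heat shock protein named as a crystallin, had 5848, 5646 and 6167 and 5439.6, 5190.4 and 6219.6 (-0.07 ± 0.07 SE) and did not pass.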

How the data were processed

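Per the labels' protocols, TRIzol RNA was enriched for polyadenylated transcripts, made into strand-specific libraries and sequenced from both ends; the submitters' processing notes name FastQC and HISAT2, with no version, and the build GRCm38. The counter, strand setting, annotation and any filter are unstated in the sources used here; no listed gene has under 33 reads over the 6 libraries. The deposited values are a normalised signal: read counts that the authors divided by 1 factor per library, as 100% of values are whole multiples of the library's smallest (tolerance 0.001 read); 3 reads correspond to 0.128 to 0.155 CPM.

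The comparison used limma 3.58.1 (R 4.3.3) with a mean-variance trend on log2(value + 1), over the 16387 genes at 1 or more in 3 or more libraries, and Benjamini-Hochberg adjustment over all of them; an adjusted p under 0.05 is called. Fold changes are on that scale and understate changes of low genes. The design named edgeR for raw counts; as the values are normalised, limma was the main test, and edgeR 4.0.16 on recovered reads (2680 genes called, against 2690) and DESeq2 1.42.0 were alternatives. Transcript GC content and length are those of the longest GENCODE M21 transcript (15541 genes, 94.7%; all 65 members). Classes and compartments follow gene names and textbook knowledge. Named were every called member, every heat shock protein, the J-domain genes with the most reads per length and the largest uncalled changes. Members and lists were chosen with earlier results of these data known. Limma and edgeR were tested on simulated data. Some results of the partner lists are not reported here.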

Additional observations from a re-analysis of the deposited data

How the results depend on the processing

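The 16 rises and 1 fall among members were the same 17 genes with a pseudocount of 0.1, with no filter and in edgeR with TMM or RLE factors, and DESeq2 added 3 rises. The count that rose was 7 after GC correction (6 of the 16) and 10 without SETDB2-up libraries 1 and 2 (8 of the 16), and ranged from 8 to 19 with 1 library left out; the count that fell was 0 without SETDB2-up libraries 1 and 2 and ranged from 0 to 4 with 1 library left out. Among partner genes, 14 rose and 4 fell; 7 and 1 did so after GC correction, 1 fell in the fit with block and GC correction, 25 rose with the block, 6 rose and 2 fell without SETDB2-up libraries 1 and 2, and with 1 library left out 8 to 14 rose and 1 to 6 fell; for these genes every alternative but the GC correction was added after seeing the data. The cause of these differences was not tested, beyond there being fewer libraries or genes in some fits. Over all genes tested, 417 to 1526 rose and 676 to 1807 fell with 1 library left out. With the replicate number as a block 22 members rose and 2 fell (1695 and 1923 of all 16387 genes), the second being Hspa1a, and with the block and GC correction together 12 rose and 3 fell (797 and 1050 of 15513 genes). Same-numbered libraries deviated together only weakly (correlations 0.036 to 0.048 over genes), and the numbers were not used as pairs, though each library correlated best with the other of its own number. Log2 fold changes took the other sign in 70 of 1335 values of the genes named, 66 of them past the threshold neither there nor in the reported fit; Stub1, which fell, turned without passing, and Dnajb2 (adjusted p = 0.0499) and Bag3 (0.048) passed with block and GC correction. With GC correction, alone or with the block, these were Bag3 0.12, Cryab 0.021, Dnaja3 0.00037, Dnajb12 0.032, Dnajb2 0.13, Dnajc21 -0.11, Hsf2 -0.092, Hspa12b 0.16, Hspa14 -0.017, Hspa1l 0.056, Hspa2 0.065, Hspb11 -0.066, Hspe1 -0.061 and Stub1 0.037. Without SETDB2-up libraries 1 and 2 they were Bag3 0.085, Cryab 0.080, Dnaja3 0.026, Dnajb2 0.096, Dnajb5 0.024, Dnajc21 -0.15 and Hspa1b 0.29. With 1 library left out the ranges were Bag3 -0.065 to 0.045, Dnaja3 -0.062 to 0.049, Dnajb11 -0.046 to 0.078, Dnajb2 -0.092 to 0.0081, Dnajc1 -0.043 to 0.037, Dnajc21 -0.023 to 0.16, Dnajc28 -0.25 to 0.086, Dnajc5 -0.025 to 0.027, Dnajc8 -0.18 to 0.014, Hsp90ab1 -0.044 to 0.0015, Hspa12b -0.058 to 0.054, Hspa14 -0.032 to 0.096, Hspa1b -0.45 to 0.060, Hspa1l -0.15 to 0.10, Hspa2 -0.086 to 0.060, Hspb11 -0.016 to 0.15, Hspb7 -0.036 to 0.32, Hspb8 -0.013 to 0.11 and Hspe1 -0.029 to 0.12. With 3 libraries a group at this depth, the smallest log2 fold change of a member that passed in the reported fit was 0.16.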
